A study of Mus musculus with 7 samples.

Results

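The genes described here encode the proteins of the small (40S) subunit of the cytosolic ribosome. The set holds 30 genes, taken by name: the listed Rps genes, Rpsa, Fau, the paralog Rps27l, and Rps3a3, a copy of Rps3a1. All 30 were found among the 37620 gene identifiers measured, and 28 of them were among the 8033 genes with at least 1 FPKM in at least 3 of the 7 oocytes. FPKM is a count of fragments scaled by the length of the gene and by the reads of the library, so it is a level per length and relative to the other RNA of the same oocyte. Rps19 and Rps20 did not reach that filter.

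The oocytes were mature mouse eggs, held at metaphase of meiosis II (MII), and each library came from 1 whole egg. The 4 KO oocytes carried floxed Hira alleles (Hira f/f) together with Zp3-Cre, and the 3 WT oocytes carried the same floxed alleles without Cre. The WT oocytes are labelled WT1, WT2 and WT4, so their numbering has a gap. Zp3-Cre is active in growing oocytes, so Hira, which encodes a chaperone that deposits histone H3.3, is removed in the egg and not in the cells around it. The comparison asks how the egg's transcripts differ without it. The labels name no animal, strain, age or day, so each genotype counts as 1 sample, no test is given, and every SD below is the spread between single oocytes (n = 4 KO and n = 3 WT).

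The small subunit binds the mRNA, scans it for the start codon and reads the code. Its head and its body close around the mRNA, and its platform lies at the exit of the mRNA channel. Ribosomes are built during oocyte growth, transcription is silent in the mature egg, and the mRNAs of ribosomal proteins that remain there are maternal stores. In vertebrates most of these mRNAs start with a C followed by a run of C and T, the TOP motif, through which mTOR signalling sets their translation. In Xenopus oocytes they lose their poly(A) tails at maturation, and the cDNA kit used here primes on poly(A) tails.

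Reads in genes, worked out from the steps in the FPKM values, ranged from 15340782 to 25940519 per oocyte. Hira, below the filter, was at 0.0784 ± 0.0362 FPKM in KO and 0.317 ± 0.0280 FPKM in WT oocytes, without overlap. It held 49 reads over the KO and 132 over the WT oocytes, a KO rate 0.236 times the WT rate. All 12 oocyte markers examined were above the filter, and their summed level ranged from 9441 to 11868 FPKM in KO and from 15670 to 16843 FPKM in WT oocytes. Of the 12, 5 were over 1.5-fold lower, against 7.92% of all genes above the filter. Among them were Dppa3 at 5718 ± 1020 FPKM in KO and 9676 ± 285 FPKM in WT oocytes, with a difference of -0.77 as deposited but -0.20 after quantile normalization, and Zp2 at 60.3 ± 24.3 FPKM in KO and 120.1 ± 45.5 FPKM in WT oocytes. Of 20 markers of cumulus and granulosa cells, 18 averaged under 1 FPKM in both genotypes and 9 were at 0 in every oocyte, while Fshr was at 2.99 to 4.51 FPKM in KO2 to KO4 and at 0 in KO1 and in every WT oocyte, and Kitl was at 4.52 ± 1.18 FPKM in KO and 3.11 ± 0.181 FPKM in WT oocytes. Their summed level was 7.01 to 9.80 FPKM in KO and 3.39 to 4.18 FPKM in WT oocytes. The part of either in the results below was not tested.

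The start-site sequences of the genes that stood furthest apart between the genotypes, and of the 2 most abundant members, are shown because a TOP motif would begin at the start. Each runs from 20 bases before to 10 bases from the RefSeq start (GRCm38.p6; for Rps21 and Rps27l the first of several), 5′ to 3′ on the gene's strand, and the capitals mark the longest unbroken run of C and T.
Rps27l (chr9:66946066-66946095, plus strand): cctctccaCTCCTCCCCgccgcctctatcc
Fau (chr19:6057927-6057956, plus strand): ggacgtgcgcgcccccaCTTCTTCCTCTTT
Rps27 (chr3:90213639-90213668, minus strand): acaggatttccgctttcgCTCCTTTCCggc
Rps28 (chr17:33824553-33824582, minus strand): TCCTgggtaccgcgtgcggtctcgcgagag
Rps13 (chr7:116334181-116334210, minus strand): cgcgcgagagcaaacgTCggtgagtggcgt
Rpsa (chr9:120127746-120127775, plus strand): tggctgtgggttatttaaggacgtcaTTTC
Rps15 (chr10:80292411-80292440, plus strand): gCCCTCCCggcagagctcgcgataactgcg
Rps21 (chr2:180257359-180257388, plus strand): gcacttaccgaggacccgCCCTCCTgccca
Rps16 (chr7:28350669-28350698, plus strand): taaagcccgCTTCTgtcgtgacgtagcact
Rps15a (chr7:118116138-118116167, minus strand): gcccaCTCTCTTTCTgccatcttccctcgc
Rps4x (chrX:102189382-102189411, minus strand): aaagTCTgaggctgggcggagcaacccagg

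RefSeq promoters were matched for 25 of the 30 genes, with 30 start sites in all. A run of at least 8 C or T letters lay somewhere in 10 of those 30 windows (33.3%), against 12.5% of the 32821 other promoter windows. The ETS-factor core CCGGAA lay on either strand of the stretch from 250 bases before to 50 after the start in 15 of the 30 (50%), against 14.9% of the others. Among the sequences above, the runs were 9, 4 and 2 bases in Rps27, Rps28 and Rps13, which were higher in KO oocytes, and 3 to 10 bases in the 6 that were lower. The run length thus overlapped between the higher and the lower genes. These runs may lie anywhere in the window, and only in Fau, Rps27 and Rps21 above did they cover the start. Run length is therefore not a measure of the TOP motif, which was not tested.

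The levels of the 30 transcripts were far apart. The mean over the 7 oocytes ranged from 0.612 FPKM for Rps19 to 182 FPKM for Rps27l, 298 times as high, with a median of 9.72 FPKM. Of the 30, 4 had a mean of at least 50 FPKM and 11 were under 5 FPKM. The 6 most abundant made up 74.4% ± 2.28 of the summed FPKM of the set in KO and 67.6% ± 2.87 in WT oocytes. Its share of all reads in genes was 0.123% ± 0.0164 for KO and 0.127% ± 0.00892 for WT oocytes. The 43 large-subunit genes above the filter ranged from 0.879 to 214 FPKM.

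**Figure D1:**
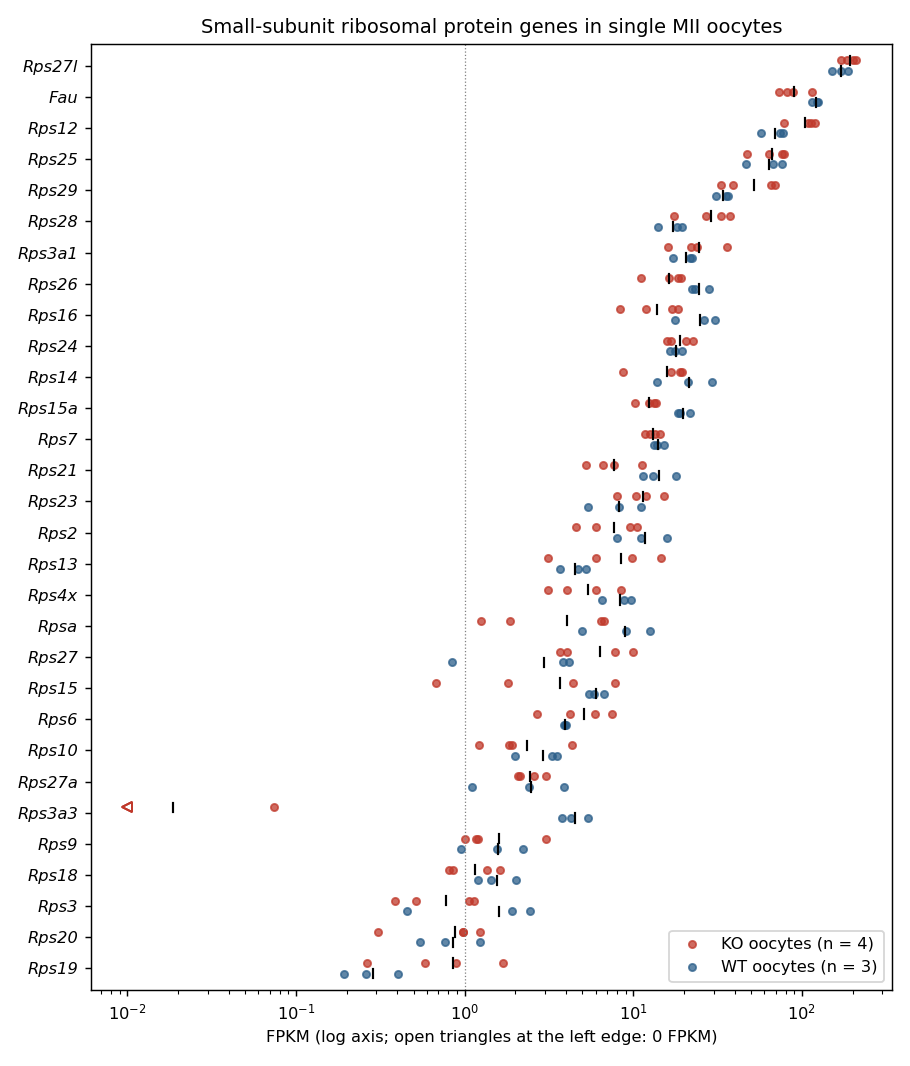
FPKM (log axis) of the 30 small-subunit genes in each KO oocyte (red) and each WT oocyte (blue), ordered by the mean over 7 oocytes, with black ticks for the group means and open triangles for 0 FPKM. The order runs from Rps27l at a mean of 182 FPKM to Rps19 at 0.612 FPKM, and Rps3a3 is the gene whose groups lie furthest apart.

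The top of the order was held by Rps27l, a p53-responsive paralog whose protein is nearly the same as that of Rps27. Rps27l (ENSMUSG00000036781) was at 201, 171, 209 and 186 FPKM in KO1 to KO4, and at 187, 171 and 150 FPKM in WT1, WT2 and WT4. Every oocyte held it within a narrow range and the genotypes overlapped. It made up 27.2% ± 4.81 of the set's summed FPKM in KO and 24.1% ± 1.73 in WT oocytes. Rps27 itself (ENSMUSG00000090733) was at 4.05, 7.79, 10.01 and 3.70 FPKM in KO1 to KO4, and at 3.84, 0.845 and 4.14 FPKM in WT1, WT2 and WT4. Rps27l was thus 20.9 to 50.3 times Rps27 in KO oocytes and 36.3 to 202.5 times in WT oocytes, the highest ratio coming from WT2, where Rps27 was lowest. Only between Rps27l and the next gene, Fau, were the ranges over all 7 oocytes apart. Each of the other 28 pairs of neighbours in the order overlapped.

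Fau (ENSMUSG00000038274) encodes Rps30 fused to a ubiquitin-like protein. It was at 89.1, 115, 82.0 and 72.9 FPKM in KO1 to KO4, and at 123, 124 and 115 FPKM in WT1, WT2 and WT4. The KO oocytes lay lower except KO2, which just overlapped WT4, and the difference was -0.44. It was -0.68 with median-ratio scaling, past 1.5-fold, and -0.40 with quantile normalization. Each difference given is the KO mean minus the WT mean of log2(FPKM + 1). Rps27a, whose protein is made as a fusion to ubiquitin itself, was among the scarce members at 2.06, 3.05, 2.57 and 2.13 FPKM in KO1 to KO4, and 2.40, 3.89 and 1.11 FPKM in WT1, WT2 and WT4. Its genotypes overlapped and its difference was 0.07.

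Other abundant members encode small proteins of the head. Rps25, a head protein that viral internal ribosome entry sites need, was at 78.7, 76.1, 63.6 and 47.3 FPKM in KO1 to KO4, and at 76.3, 67.4 and 46.8 FPKM in WT1, WT2 and WT4. The genotypes covered the same range. Rps29, a zinc-binding head protein, was at 39.2, 65.7, 69.2 and 32.9 FPKM in KO1 to KO4, and at 35.5, 36.3 and 30.8 FPKM in WT1, WT2 and WT4. KO2 and KO3 stood above all others while KO1 and KO4 lay near the WT oocytes, and the difference was 0.52. Rps12, a head protein known in Drosophila as a sensor in cell competition, was at 109, 119, 113 and 78.7 FPKM in KO1 to KO4, and at 77.2, 56.9 and 74.4 FPKM in WT1, WT2 and WT4. It was the only member with every KO oocyte above every WT oocyte, which 18.9% of all genes above the filter also showed (15.8% of those at 10 FPKM or more and 20.6% of those under it), and KO4 was above WT1 by little. Its difference was 0.58 as deposited and 0.34 with median-ratio scaling.

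The authors' gene lengths bear on this order. The length implied by reads and FPKM, taking reads in genes as the library total, was at a median 2.77 times that of the median coding transcript in GENCODE vM21, and it was at least 4 times as long for 12 of the 30 genes. Rps15a had the longest relative to its transcript, an implied 12537 bases against 638.5. Rps26 had the shortest, an implied 268 bases against 681. For Rps19 and Rps3, low in FPKM, the implied length was 11.0 and 7.97 times that of the transcript. With reads divided by the transcript length, Rps27l stayed at the top, Rps15a was second (12th in FPKM) and Rps28 came next. Rps20 came last, but its transcript length of 3706 bases was the longest of the 30. Whether that length suits the oocyte transcript was not tested. By this measure Rps27l was 156 times Rps27. Across the 30 genes the order by FPKM and by this second measure had a Spearman rho of 0.786, which is a description across genes of the same libraries. Such a length changes a gene's level but not the ratio of its FPKM between oocytes. It does move the differences of log2(FPKM + 1), through the added 1, and can move a gene across the filter. With recomputed lengths 4 members were over 1.5-fold higher and 9 lower, against 3 and 7 as deposited, and the median difference was -0.235 against -0.175.

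Shared sequence also bears on the levels, since ribosomal protein genes have many processed copies. Of the 50-base words in the coding transcripts of a member, 2.82% (Rps3) to 84.6% (Rps6) also occurred in another annotated gene, with a median of 34.2%. The median was 0 over the 7824 genes above the filter that could be matched. Level and shared percentage had a Spearman rho of 0.0576 over the 30 genes. The 3 scarcest in FPKM, Rps19, Rps20 and Rps3, shared 15.2%, 7.44% and 2.82%. Rps6 and Rps18, with the most shared words (84.6% and 79.4%), were also low at 4.602 and 1.33 FPKM. These places depend on the authors' lengths. By reads per transcript length Rps19 and Rps3 ranked 27th and 24th, and Rps6 and Rps18 16th and 20th. How reads that match several genes were counted is not given in the sources used here, so levels of members with much shared sequence are uncertain.

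**Figure D2:**
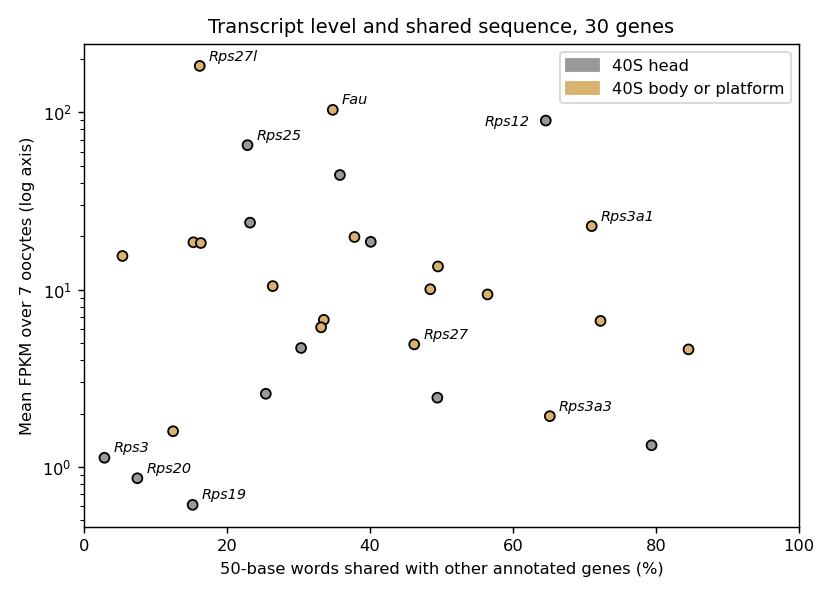
Mean FPKM over 7 oocytes (log axis) of the 30 genes against the percentage of 50-base words in their coding transcripts that occur in another annotated gene, with grey points for proteins of the 40S head and tan points for those of the body or platform. Points spread over the whole plane, from Rps3 at 2.82% to Rps6 at 84.6%.

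Between the genotypes the set went both ways, and its median lay below that of all genes. Of the 28 members above the filter, 3 were over 1.5-fold higher in KO oocytes (Rps27, Rps28 and Rps13) and 7 were over 1.5-fold lower (Rps3a3, Rpsa, Rps15, Rps21, Rps16, Rps15a and Rps4x). Over all 8033 genes, 22.6% exceeded that fold upward and 7.92% downward. The shares were 16.3% and 9.63% at a mean of at least 10 FPKM, and 25.9% and 7.01% under it. The median difference of the 28 was -0.18, against 0.18 for all genes above the filter, and it was -0.06 over the 30. Rps3a3 passed the filter through the WT oocytes alone, and without it the median was -0.10 and 6 were lower.

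The shift of all genes depends on the scale, so the set is best read against it. The median of all genes was 0.18 as deposited, -0.01 with median-ratio scaling and 0.00 with quantile normalization, and the set's median lay 0.36, 0.35 and 0.34 below it. Those gaps include Rps3a3, and without it the set's medians were -0.10, -0.33 and -0.27 on the 3 scales. Median-ratio scaling gave 1 member over 1.5-fold higher and 12 lower, and quantile normalization 2 higher and 10 lower, with Rps3a3 counted among the lower. Small differences changed sign: Rps27l, Rps25, Rps3a1, Rps24 and Rps27a were negative with median-ratio scaling, and Rps24, Rps6 and Rps27a with quantile normalization. All 7 lower members, Rps3a3 among them, and, of the higher ones, Rps27 alone were over 1.5-fold apart on each of the 3 scales. The summed FPKM of the set was 718 ± 104 in KO and 702 ± 46.3 in WT oocytes, a ratio of 1.023, and the groups overlapped. That ratio was 0.862 with median-ratio scaling and 0.974 without KO2.

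**Figure D3:**
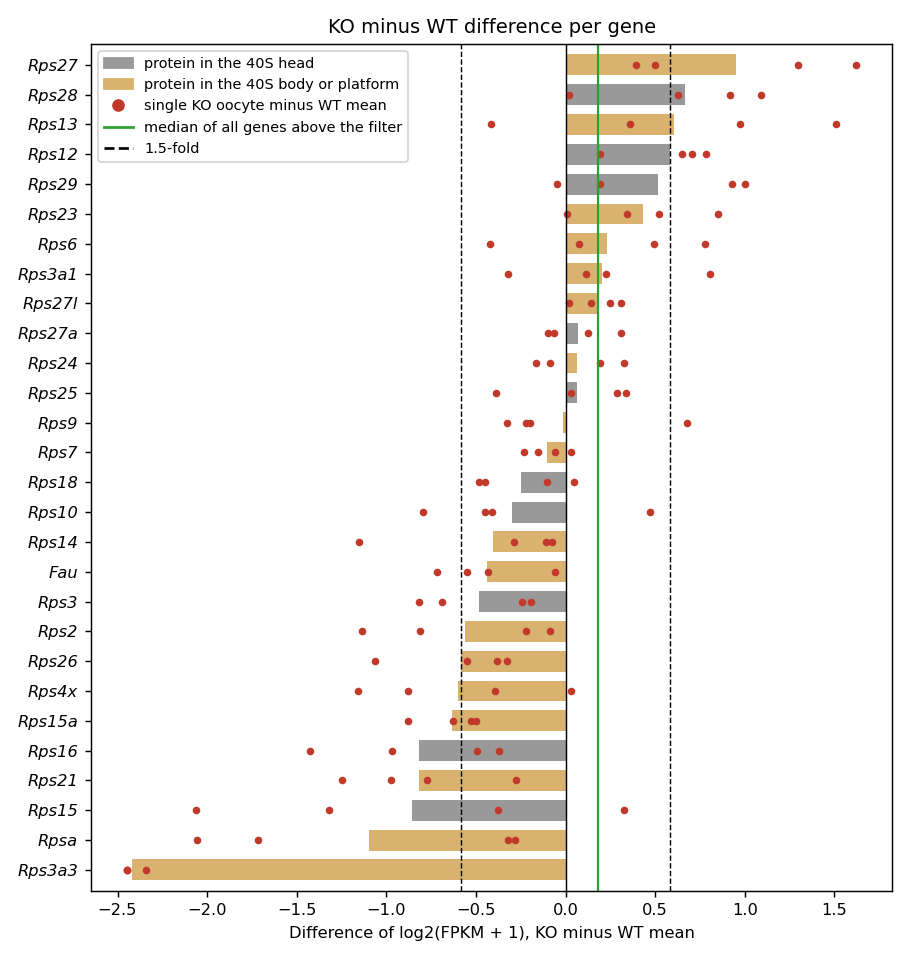
KO mean minus WT mean of log2(FPKM + 1) for the 28 members above the filter (bars, grey for the 40S head and tan for the body or platform), with each KO oocyte set against the WT mean (red points), the 1.5-fold limits (dashed) and the median of all genes above the filter, 0.18 (green). The bars run from -2.42 for Rps3a3 to 0.95 for Rps27, and 16 of the 28 are negative.

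Among the higher members the KO oocytes themselves were spread. Rps27 had a difference of 0.95 and overlapped, with KO3 and KO2 above every WT oocyte and KO1 and KO4 near WT1 and WT4, and it was 0.47 without WT2. It rests on 232 reads over the KO and 60 over the WT oocytes, with only 7 in WT2. Rps28, a small head protein near the mRNA exit, was at 33.2, 37.6, 27.0 and 17.4 FPKM in KO1 to KO4, and at 18.2, 14.1 and 19.5 FPKM in WT1, WT2 and WT4. KO1 to KO3 were above every WT oocyte and KO4 among them, and the difference was 0.66. It fell inside the 1.5-fold limit without KO1 (0.58), KO2 (0.52) or WT2 (0.53). Rps13, a body protein that helps bridge to the large subunit, was at 6.05, 14.7, 9.82 and 3.12 FPKM in KO1 to KO4, and at 4.73, 3.67 and 5.22 FPKM in WT1, WT2 and WT4. KO4 was the lowest of all 7 and KO2 the highest, and the difference of 0.61 was 0.31 without KO2, 0.48 without KO3, 0.49 without WT2 and 0.95 without KO4. No member was over 1.5-fold higher when WT2 was left out, and 5 were when KO4 was.

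Of the 7 lower members, 5 belong to the body or platform and 2 to the head, and the difference between these places was not tested. Every KO oocyte was below every WT oocyte for 4 of the 28 (Rps3a3, Rps21, Rps15a and Rps26), against 8.94% of all genes above the filter (14.4% of those at 10 FPKM or more and 6.04% of those under it). The filter fixed the place of Rps3a3 in that count, and without it 3 of 27 remained. Rps21, which sits beside Rpsa on the body, was at 6.59, 11.3, 7.71 and 5.27 FPKM in KO1 to KO4, and at 17.98, 11.4 and 13.1 FPKM in WT1, WT2 and WT4. KO2 came just below WT2, the other KO oocytes were well below, and the difference was -0.82. Rps15a, a body protein, was at 13.6, 13.3, 12.3 and 10.2 FPKM in KO1 to KO4, and at 21.7, 18.3 and 18.9 FPKM in WT1, WT2 and WT4. Both genotypes were tight and a clear gap lay between them, and the difference of -0.63 came inside the 1.5-fold limit without KO4 (-0.55) or WT1 (-0.56). Which stretch of its long implied length its 12839 KO and 12829 WT reads came from was not tested.

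Rpsa encodes a body protein that is also known as the laminin receptor. It was at 1.25, 6.48, 6.69 and 1.85 FPKM in KO1 to KO4, and at 9.07, 4.99 and 12.6 FPKM in WT1, WT2 and WT4. KO1 and KO4 were far below all others while KO2 and KO3 lay above WT2, and the difference was -1.09. Rps4x, the X-linked form of a body protein, was at 6.04, 8.41, 4.02 and 3.14 FPKM in KO1 to KO4, and at 9.67, 8.83 and 6.50 FPKM in WT1, WT2 and WT4. Only KO2 reached into the WT range, and the difference of -0.60 lay just past the limit and came inside it without KO3 (-0.51), KO4 (-0.41), WT1 (-0.50) or WT2 (-0.55).

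In the head, Rps15 and Rps16 were lower. Rps15, at the head near the decoding site, was at 4.40, 7.81, 0.680 and 1.81 FPKM in KO1 to KO4, and at 6.73, 5.88 and 5.49 FPKM in WT1, WT2 and WT4. The WT oocytes were alike, whereas KO2 was the highest and KO3 the lowest of all 7, and the difference of -0.86 rests on KO3, without which it was -0.46 and within 1.5-fold. Rps16, whose tail reaches the tRNA in the P site, was at 18.5, 16.9, 11.9 and 8.40 FPKM in KO1 to KO4, and at 26.2, 17.6 and 30.6 FPKM in WT1, WT2 and WT4. KO1 was just above WT2, the other KO oocytes were below every WT oocyte, and the difference was -0.81. By place, 1 of 10 head genes above the filter was over 1.5-fold higher and 2 lower, and of 17 body and platform genes other than Rps3a3, 2 were higher and 4 lower.

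Of the 18 members within 1.5-fold, 11 are not among those given here by oocyte, and their differences ran from -0.58 to 0.43, with 8 negative and 3 positive. Rps26, which lines the mRNA exit channel, lay just inside the limit at -0.58, with 16.3 ± 3.65 FPKM in KO and 24.5 ± 3.198 FPKM in WT oocytes. Rps26, Rps2, Rps14 and Rps3, like Fau above, were over 1.5-fold lower with median-ratio scaling. Rps7, of the body, was the steadiest at 13.1 ± 1.11 FPKM in KO and 14.1 ± 0.994 FPKM in WT oocytes. Rps6, the target of the S6 kinases, was at 5.09 ± 2.09 FPKM in KO and 3.95 ± 0.0528 FPKM in WT oocytes. Rps14, a platform protein tied to human 5q- syndrome, was at 15.9 ± 4.98 FPKM in KO and 21.5 ± 7.82 FPKM in WT oocytes. Rps2, at the mRNA entry, was at 7.67 ± 2.83 FPKM in KO and 11.7 ± 3.96 FPKM in WT oocytes, with overlap.

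Rps23, of the decoding centre, had the highest of these differences (0.43), with 11.4 ± 2.99 FPKM in KO and 8.28 ± 2.87 FPKM in WT oocytes. The differences of Rps24 (0.07), Rps9 (-0.02), Rps18 (-0.25), Rps10 (-0.30) and Rps3 (-0.48) came with overlap between the genotypes. Rps19, a gene mutated in human Diamond-Blackfan anaemia, was below the filter at 0.265, 0.889, 1.69 and 0.582 FPKM in KO1 to KO4, and 0.260, 0.192 and 0.403 FPKM in WT1, WT2 and WT4. It held 552 reads in KO and 101 in WT oocytes, with KO3 alone holding 310. Rps20, a head protein ubiquitinated on collided ribosomes and also below the filter, was at 0.875 ± 0.398 FPKM in KO and 0.850 ± 0.352 FPKM in WT oocytes.

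Rps3a3 was the member with the widest gap. It is annotated as a processed pseudogene on chromosome 13, and a second copy, Rps3a2, lies on chromosome 14, while the parent gene Rps3a1 on chromosome 3 encodes a platform protein. Rps3a3 differed from the Rps3a1 transcript at 9 of 795 aligned bases (98.9% identity) and Rps3a2 at 4 of 792 (99.5%). The longest identical stretches were 215 and 317 bases. The following 60 bases show how little tells them apart: they are the stretch where Rps3a3 differs most from Rps3a1, taken from GENCODE vM21 transcripts (GRCm38), with capitals where a copy differs from Rps3a1.
Rps3a1: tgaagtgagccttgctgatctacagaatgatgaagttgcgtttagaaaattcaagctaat
Rps3a2: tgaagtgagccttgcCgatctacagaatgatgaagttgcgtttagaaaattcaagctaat
Rps3a3: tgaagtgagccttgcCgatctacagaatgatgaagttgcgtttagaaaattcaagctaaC

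Rps3a3 (ENSMUSG00000059751) was at 0, 0, 0.0742 and 0 FPKM in KO1 to KO4, and at 5.41, 4.30 and 3.76 FPKM in WT1, WT2 and WT4. It had 2 reads over the KO oocytes (95% Poisson interval 0.242 to 7.225) and 243 over the WT oocytes (213 to 276). The KO rate was 0.00522 times the WT rate, with an exact interval of 0.000629 to 0.0191. Rps3a2 had 10 reads in KO and 161 in WT oocytes, 0.0394 times the rate (0.01855 to 0.0744). These intervals cover counting error only, since amplified reads are not independent molecules. The genotypes did not overlap for either copy. Both copies reached 1 FPKM in the WT oocytes alone, so passing the filter fixed this.

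Rps3a1 itself was at 23.9, 36.2, 22.03 and 16.1 FPKM in KO1 to KO4, and at 17.2, 21.6 and 22.4 FPKM in WT1, WT2 and WT4. The genotypes overlapped, with KO2 highest and KO4 lowest. Summed over the 3 loci, the level was 29.1 ± 10.1 RPM for KO and 31.4 ± 3.75 RPM for WT oocytes, where RPM scales the reads of each oocyte by its total in genes, again with overlap. The sum thus overlapped between the genotypes while its division among the loci did not. The 2 copies took 1.10% of those reads in KO1 (exact 95% interval 0.357 to 2.54), 0.473% in KO2 (0.129 to 1.21), 0.444% in KO3 (0.0916 to 1.29) and 0 of 406 reads in KO4 (0 to 0.9045, where 3 reads would be 0.739%). They took 27.0% in WT1 (23.1 to 31.3), 23.15% in WT2 (19.98 to 26.55) and 23.7% in WT4 (20.1 to 27.6). The shares thus fell into 2 ranges far apart, by genotype, and how reads were assigned among the near-identical loci was not tested.

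**Figure D4:**
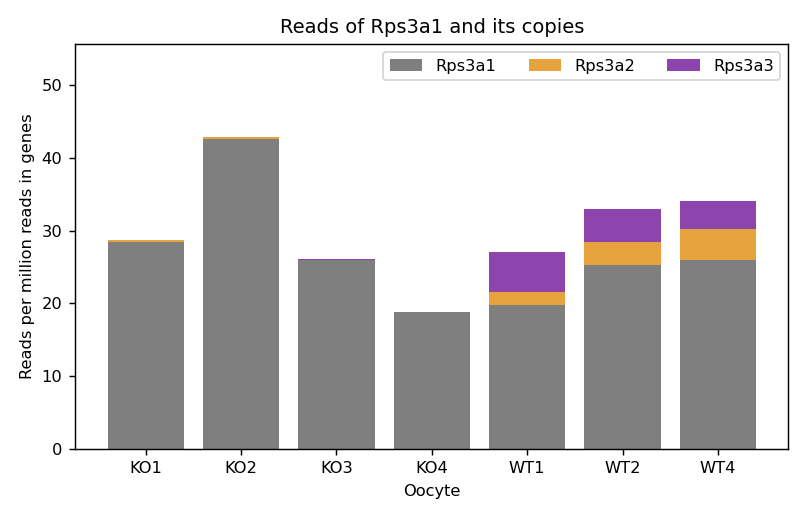
Reads at Rps3a1 and its copies Rps3a2 and Rps3a3, as RPM of the reads in genes, stacked for each oocyte, with the 4 KO oocytes left of the 3 WT oocytes. The copies together take 0 to 1.10% of each KO bar and 23.15% to 27.0% of each WT bar.

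Single oocytes weighed on the set. KO4 held the lowest level of 11 of the 28 members above the filter and the highest of none, and KO2 held the highest of 8. Relative to the median deviation of all genes above the filter in the same oocyte, the members' median lay at -0.12, 0.08, -0.10 and -0.49 in KO1 to KO4, and at 0.25, 0.16 and 0.14 in WT1, WT2 and WT4. KO4 thus stood apart from the other KO oocytes, and without it the median difference was -0.11, with 5 members over 1.5-fold higher and 6 lower. The coefficient of variation of a member had a median of 33.7% among KO and 19.2% among WT oocytes. Over all genes above the filter it was 23.8% among KO and 28.7% among WT oocytes, and over the large-subunit genes 29.1% among KO and 24.1% among WT oocytes. Whether the oocytes or their amplification vary was not tested.

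**Figure D5:**
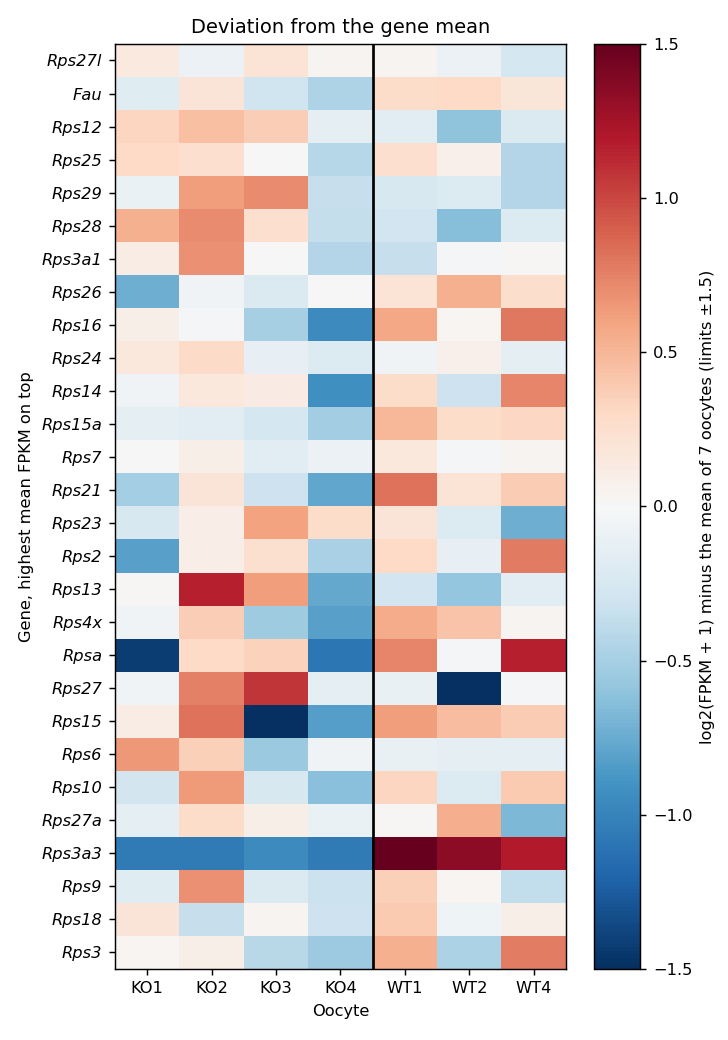
Deviation of log2(FPKM + 1) from the mean of the 7 oocytes for the 28 members above the filter, from blue (lower) to red (higher) with limits at ±1.5, the most abundant gene on top and the KO oocytes left of the line. KO4 is the lowest oocyte for 11 members and KO2 the highest for 8.

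The large-subunit genes had a median between that of the small-subunit set and that of all genes. Of 43 compared, 6 were over 1.5-fold higher and 4 lower in KO oocytes, where all genes gave 22.6% and 7.92%, with a median of -0.01 (-0.21 with median-ratio scaling and -0.22 with quantile normalization). Rpl34 was at 14.2 ± 4.30 FPKM in KO and 34.1 ± 5.31 FPKM in WT oocytes. Rplp1, of the stalk that recruits translation factors, was at 255 ± 85.6 FPKM in KO and 123 ± 66.1 FPKM in WT oocytes. The difference between the large-subunit and small-subunit sets was not tested.

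Genes that build the 40S subunit had a median near that of all genes. Of 37 assembly factors compared, 6 were over 1.5-fold higher and 3 lower (22.6% and 7.92% of all genes), and their median was 0.15 (-0.08 with median-ratio scaling and 0.02 with quantile normalization). Rps19bp1, whose protein binds Rps19, was at 8.23, 16.5, 11.5 and 11.8 FPKM in KO1 to KO4, and at 4.08, 4.06 and 6.49 FPKM in WT1, WT2 and WT4. Its lowest KO oocyte exceeded its highest WT oocyte. Fbl, the fibrillarin that methylates ribosomal RNA, was at 3.78 ± 1.38 FPKM in KO and 1.16 ± 0.674 FPKM in WT oocytes, also without overlap. Of the 37, 7 had every KO oocyte above every WT oocyte and 6 had every KO oocyte below. Over all genes above the filter these shares were 18.9% and 8.94%.

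Of 15 TOP genes outside the ribosomal proteins, 3 passed the fold upward and 0 downward, a share upward no higher than the 22.6% of all genes. The median difference was 0.26, against 0.18 for all genes, and it was 0.01 after median-ratio scaling and 0.17 after quantile normalization. Pabpc1, the poly(A)-binding protein, was at 4.43 ± 1.41 FPKM in KO and 0.671 ± 0.398 FPKM in WT oocytes. Eif3h, a subunit of the initiation factor that sits on the 40S subunit, was at 11.9 ± 1.90 FPKM in KO and 5.31 ± 1.41 FPKM in WT oocytes. Neither overlapped between the genotypes. Of the 15, 4 had every KO oocyte above every WT oocyte and 2 had every KO oocyte below, against 18.9% and 8.94% of all genes above the filter.

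Regulators of the 40S subunit passed the fold upward about as often as all genes (22.6%). Of 11 mTOR and S6 kinase pathway genes, 3 passed the fold upward and 0 downward, at a median of 0.23 (0.02 after median-ratio scaling). Eif4ebp1, which holds back cap-dependent initiation, was at 2.12 ± 1.07 FPKM in KO and 0.543 ± 0.490 FPKM in WT oocytes. It reached 1 FPKM in the KO oocytes alone, so its place among the 3 upward genes is not independent of the filter. Rps6ka6, an S6 kinase of the RSK family, was at 15.8 ± 2.63 FPKM in KO and 9.94 ± 5.003 FPKM in WT oocytes, with overlap, and its difference of 0.71 was 0.49 after median-ratio scaling and 0.53 after quantile normalization. Of 13 genes of ribosome quality control and rescue, 3 passed the fold upward and 0 downward, at a median of 0.19 (0.06 after median-ratio scaling and -0.05 after quantile normalization). Pelo, which rescues stalled ribosomes, was at 5.92, 5.38, 6.92 and 9.10 FPKM in KO1 to KO4, and at 2.64, 1.197 and 1.51 FPKM in WT1, WT2 and WT4. G3bp1, a binding partner of the 40S subunit, was at 2.22 ± 0.393 FPKM in KO and 0.886 ± 0.177 FPKM in WT oocytes, and its difference of 0.77 was 0.52 after quantile normalization. No KO oocyte of Pelo or G3bp1 reached down to a WT oocyte. G3bp1 reached 1 FPKM in the KO oocytes alone, so passing the filter fixed this for G3bp1. Its place among the 3 upward genes is likewise not independent of the filter. Of the 13, 4 had every KO oocyte above every WT oocyte, G3bp1 among them, and 2 had every KO oocyte below. Over all genes above the filter these shares were 18.9% and 8.94%.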

How the data were processed

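The authors deposited linear FPKM for each Ensembl gene in each oocyte. Per the submitters' processing notes, the build was mm9 and the tools included TopHat2 2.0.2, Bowtie 0.12.8, edgeR 3.1.10 and HTSeq, whose roles are not given in the sources used here. cDNA was made on single oocytes with an ultra-low-input kit, per the labels' protocols, and spike-in values were not used here. Symbols came from a GRCm38 annotation and named 87.4% of the identifiers, and all printed coordinates are of GRCm38, not of the authors' build.

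A gene was kept where 3 or more oocytes reached 1 FPKM, and the KO mean minus the WT mean of log2(FPKM + 1) was taken, without a test. Whole reads were recovered from the FPKM steps within 0.01 as the smallest that fit, and the procedure was tested on simulated data. In genes seen in 1 library they are a minimum. Median-ratio factors came from genes above 0 in every oocyte, and quantile normalization used all 37620 genes. Shared sequence was counted as 50-base words in GENCODE vM21, on the annotated strand. Python 3.11.15, numpy 2.4.6, scipy 1.17.1 and Biopython 1.88 were used.

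The members and lists were chosen with earlier results of these data known. Values per oocyte are given for members over 1.5-fold apart, the 6 most abundant, Rps3a1, Rps3a3, Rps27, Rps27l, Rps27a and Fau, and the 2 genes furthest apart are named from each other list. Rps19, Rps20, the members within 1.5-fold and the grouping by place in the subunit were added after values were seen. Alternatives were other pseudocounts, filters and scalings, each oocyte left out, same-numbered oocytes, recomputed lengths and the set without Rps3a3, the last 2 chosen after seeing the data.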

Additional observations from a re-analysis of the deposited data

Results flagged for a closer look

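The 4 KO oocytes were examined for a value far from the others in each of the 30 genes and their sum, 31 series in all, of which chance would flag about 5%. In Rps9, KO2 stood at 3.03 FPKM against 1.202, 1.17 and 1.01 FPKM in KO1, KO3 and KO4, so that its gap to the next oocyte was 0.906 of the range. In Rps3a3, KO3 was the KO oocyte with reads (2 reads, 0.0742 FPKM) while the other 3 were at 0, so that the gap was the whole range (1.0).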

How the results depend on the processing

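The median difference of the set kept its sign under every alternative tried, from -0.355 with median-ratio scaling to -0.019 with a filter at FPKM 10, and from -0.247 to -0.087 with each oocyte left out. The counts moved more. With a pseudocount of 5, 0 members passed 1.5-fold upward and 4 downward. These were 4 and 10 with a pseudocount of 0.1, and 4 and 9 with recomputed lengths. A filter at FPKM 10 left 16 members, with 1 higher and 3 lower, since fewer genes are counted. Median-ratio scaling gave 1 higher and 12 lower, and the ratio of summed FPKM turned to 0.862. With each oocyte left out, the number higher ranged from 0 (without WT2) to 5 (without KO4 or WT1) and was 1 without KO2, the number lower ranged from 6 to 9, and the summed ratio ranged from 0.974 (without KO2) to 1.092. The cause was not tested. Of the values of single genes under these alternatives, 213 moved by less than the spread between oocytes and 8 by more, and the genes over 1.5-fold apart kept their sign in all of them.

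Same-numbered oocytes did not deviate together: the correlations over genes were 0.107, -0.116 and -0.0439 for numbers 1, 2 and 4. A fit with the replicate number as a block, which leaves out KO3, gave a median of -0.160, with 2 higher and 7 lower and a summed ratio of 1.008.

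No spike-in values were used, so a change in total RNA per oocyte cannot be seen, and a genotype difference cannot be told apart from a difference between animals.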

Other observations

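Rps4l, a paralog of Rps4x, was at 8.01, 28.5, 19.5 and 13.6 FPKM in KO1 to KO4, and at 24.4, 21.7 and 26.6 FPKM in WT1, WT2 and WT4. By FPKM it was 1.33 to 4.84 times Rps4x in KO oocytes and 2.46 to 4.09 times in WT oocytes. As with Rps27l and Rps27, the paralog thus had the higher FPKM of the pair in every oocyte. With reads divided by the transcript length, Rps4l was only 1.4 times Rps4x over all oocytes. Rps4l had fewer reads than Rps4x in KO1 (146 and 277) and WT2 (491 and 504), as many in WT1, and more in the other oocytes. Of the 50-base words of Rps4x, 72.2% also occurred in another annotated gene, against 14.9% for Rps4l. Rack1, a scaffold on the 40S head, was at 8.22 ± 0.889 FPKM in KO and 11.8 ± 2.79 FPKM in WT oocytes. Every KO oocyte was below every WT oocyte, which 8.94% of all genes above the filter also showed.

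Apart from Rps3a2 and Rps3a3, 63 entries are named as pseudogenes of the members. Of these, 30 were at 0 in every oocyte and 2 were above the filter, and their summed level was 5.45 ± 1.74 FPKM in KO and 7.38 ± 2.30 FPKM in WT oocytes. The highest of the 63 was Rps15a-ps4, with a mean of 1.51 FPKM.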
